A study of Mus musculus with 17 samples.

Results

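The mesothelial genes described here are Upk3b, Upk1b, Lrrn4, Msln and Wt1, 5 of the 18262 genes in a whole-lung RNA-seq table. They were chosen by name, as markers of the cell sheet that covers the lung. All 5 were in the table, and all 5 passed the minimum for testing, which was an RPM (reads per 1000000 reads) of 0.5 in at least 4 of the 16 lungs.

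The lungs came from C57BL/6 mice in 4 groups of 4 libraries each. Treated tumor-bearing mice had received 500000 M3-9-M ffluc-mCherry cells, a rhabdomyosarcoma line, in the gastrocnemius, a calf muscle, and, on day 12, 8000000 IL12-GEMys by vein. IL12-GEMys are myeloid cells engineered to secrete the cytokine IL-12. Untreated tumor-bearing mice had the tumor cells alone, treated naive mice had the IL12-GEMys alone, and untreated naive mice had neither. Lungs were taken 3 days after the injected cells, on day 15 after the tumor cells. Another library came from the IL12-GEMy product itself, which was made from bone marrow with a lentivirus and the cytokines SCF, FLT3L and IL-6. The labels name no vehicle injection for the untreated mice and give neither age nor sex. They do not say that the 4 libraries of a group are 4 mice, so p-values measure the spread between libraries.

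Mesothelial cells form a single layer on the visceral pleura, where their surface glycoproteins and secreted hyaluronan and lubricin let the lung slide against the chest wall. They descend from mesoderm but carry keratins and junctions like an epithelium, and in injured or fibrotic lung they are known to lose these features. Upk3b and Upk1b encode uroplakins, membrane proteins first known from the bladder lining, of which uroplakin 1B is a tetraspanin. Lrrn4 encodes a membrane protein with leucine-rich repeats, and Msln encodes mesothelin, a surface glycoprotein that binds the mucin Muc16. Wt1 encodes a zinc finger transcription factor that is needed for the development of mesothelium and is a common marker of it.

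Sequencing gave 27566836 to 36815062 reads assigned to genes per lung and 31111336 for the cell product. RPM here is the deposited value of a gene freed of its length, so that each library sums to 1000000. Markers of alveolar type 2 cells summed to 17527 to 28665 RPM over all lungs, which fits the labelled tissue. Summed neutrophil markers reached 1428 to 4194 RPM in treated and 2909 to 4855 RPM in untreated tumor-bearing lungs, against 167 to 224 RPM in treated and 184 to 270 RPM in untreated naive lungs. The tumor sample descriptions share the number 2 in all treated and 1 in all untreated libraries, so whatever that number marks cannot be told apart from treatment.

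In mm10, with both ends counted from 1, Upk3b lies at chr5:136038496-136044993 on the plus strand and Upk1b at chr16:38773184-38800203 on the minus strand. Lrrn4 lies at chr2:132868516-132880862 on the minus strand, Msln at chr17:25748613-25754378 on the minus strand and Wt1 at chr2:105126529-105173614 on the plus strand. All are protein-coding. Wt1 has an antisense neighbour, Wt1os, that starts 18 bases away on the other strand, and whether counting used strand is not given in the sources used here. Wt1os held 0 to 3 reads in any library. Upk3bl, a paralog of Upk3b, averaged 0.0523 RPM over the lungs.

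RefSeq promoter windows, which run from 250 bases before to 50 bases after a gene's start, matched Upk3b and Lrrn4 among the 5 genes. These genes are also the pair that fell both with the tumor alone and with IL12-GEMys alone, but no link to the promoter was tested. Their windows are shown because they were the ones that matched. Each is written 5′ to 3′ on the gene's own strand, from build GRCm38.p6, with CpG dinucleotides in capitals. The first is chr5:136038246-136038545 on the plus strand and the second is chr2:132880813-132881112 on the minus strand.
Upk3b: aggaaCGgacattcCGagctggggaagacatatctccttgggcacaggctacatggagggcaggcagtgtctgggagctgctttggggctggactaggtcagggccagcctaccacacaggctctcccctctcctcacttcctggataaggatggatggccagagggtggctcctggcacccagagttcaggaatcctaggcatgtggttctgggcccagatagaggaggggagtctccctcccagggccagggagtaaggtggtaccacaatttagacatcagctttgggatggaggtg
Lrrn4: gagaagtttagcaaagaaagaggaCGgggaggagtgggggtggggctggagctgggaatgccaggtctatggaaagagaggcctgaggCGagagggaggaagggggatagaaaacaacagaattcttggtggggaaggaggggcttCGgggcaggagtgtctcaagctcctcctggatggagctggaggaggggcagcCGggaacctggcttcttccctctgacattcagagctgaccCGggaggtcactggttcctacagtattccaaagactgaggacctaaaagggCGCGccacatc

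The windows were alike in base composition, with 58.7% G or C in Upk3b and 58.0% in Lrrn4, against a median of 52.7% over 32851 windows. They differed in CpG content, with 2 CpG in Upk3b and 7 in Lrrn4, against a median of 7. A search on both strands covered the box shared by WT1 and EGR factors, GCGGGGGCG, the STAT site TTCNNNGAA and the TATA box TATAAA, which stand in 2.91%, 8.30% and 13.6% of all windows. None of them was in the Upk3b or Lrrn4 window. This says only that these letters are not in these windows.

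Per kilobase of exon, Upk3b and Msln were the most abundant of the 5 transcripts and Wt1 the least. Upk3b averaged 28.7 RPM per exon kilobase over the 16 lungs and Msln 26.6, and Upk3b was above Msln in 12 of the 16, so these neighbours are not separated in every lung. Exon lengths here are from GENCODE M21, which ends Upk3b 1494 bases past the listed end and Msln at it. The Upk3b value depends on that length. Msln was above Upk1b (22.4) in 16 of 16 lungs, Upk1b above Lrrn4 (10.4) in 16 of 16, and Lrrn4 above Wt1 (0.589) in 16 of 16. The transcription factor therefore stood far below the surface proteins in every library. On the plain RPM scale the spread between libraries of a group ran from 2.26% to 25.1% of the mean, where counting alone gives 1.67% to 10.2%.

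The injected cell product held almost none of these transcripts. It had 0 reads of Upk3b, Msln and Wt1, 1 read of Upk1b and 5 reads of Lrrn4. With 3 reads as the floor (0.0964 RPM), the lung mean was at least 1050-fold higher than the product for Upk3b, at least 844-fold for Msln and at least 37.9-fold for Wt1. These limits cover counting error only.

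Upk3b was highest in untreated naive lungs. It had 93.1, 99.3, 94.2 and 99.6 RPM in treated tumor-bearing lungs, 95.2, 86.2, 80.3 and 80.1 RPM in untreated tumor-bearing lungs, 97.1, 113, 92.8 and 89.9 RPM in treated naive lungs, and 110.4, 132, 125 and 132 RPM in untreated naive lungs. No library of either tumor-bearing group reached the lowest untreated naive library, and 1 of the 4 treated naive libraries passed it.

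Upk1b, its tetraspanin relative, had 45.5, 39.2, 50.1 and 40.9 RPM in treated tumor-bearing lungs, 53.4, 39.9, 36.7 and 36.3 RPM in untreated tumor-bearing lungs, 48.8, 47.1, 46.8 and 44.8 RPM in treated naive lungs, and 56.2, 54.2, 52.7 and 55.5 RPM in untreated naive lungs. Replicate 1 of the untreated tumor-bearing group stood apart from the other 3 and was the only library outside the untreated naive group within that group's range.

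Lrrn4 had 33.4, 38.7, 37.0 and 47.8 RPM in treated tumor-bearing lungs, 32.1, 32.4, 32.1 and 33.6 RPM in untreated tumor-bearing lungs, 31.7, 39.6, 36.0 and 36.0 RPM in treated naive lungs, and 39.8, 49.9, 49.7 and 45.8 RPM in untreated naive lungs. The untreated tumor-bearing libraries lay close together and below all untreated naive libraries, while replicate 4 of the treated tumor-bearing group lay within the untreated naive range.

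Msln had 98.4, 89.1, 81.4 and 82.8 RPM in treated tumor-bearing lungs, 82.2, 66.2, 71.6 and 71.8 RPM in untreated tumor-bearing lungs, 75.1, 86.0, 73.7 and 69.0 RPM in treated naive lungs, and 82.9, 87.6, 90.6 and 93.4 RPM in untreated naive lungs. The treated tumor-bearing libraries spread across the untreated naive range, and replicate 1 of the untreated tumor-bearing group lay just under that range.

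Wt1 had 3.61, 3.00, 4.30 and 4.96 RPM in treated tumor-bearing lungs, 3.20, 3.34, 3.70 and 4.31 RPM in untreated tumor-bearing lungs, 3.13, 2.82, 3.73 and 2.92 RPM in treated naive lungs, and 2.43, 4.06, 4.36 and 4.54 RPM in untreated naive lungs. All 4 groups overlapped, and both the lowest untreated naive library and the highest treated tumor-bearing library set the limits of the whole series.

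**Figure D1:**
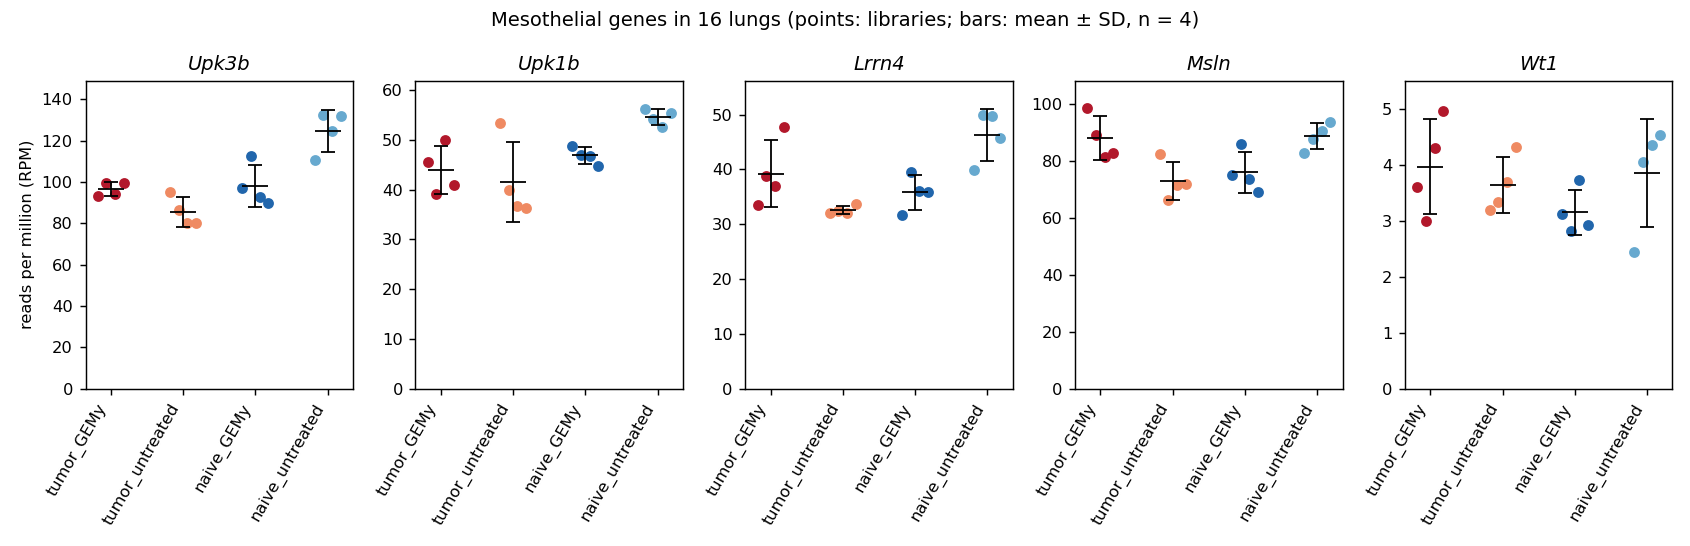
RPM of each mesothelial gene in the 16 lungs, where a point is a library, the horizontal bar the group mean and the whiskers 1 SD (n = 4). The groups are tumor-bearing with IL12-GEMys (tumor_GEMy), tumor-bearing untreated, naive with IL12-GEMys (naive_GEMy) and naive untreated, where the untreated naive mean stands highest for Upk3b, Upk1b and Lrrn4, and narrowly so for Msln, and the Wt1 libraries of all groups overlap.

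The tumor in the leg was accompanied by lower levels of 4 of the 5 genes in the lung, when untreated tumor-bearing lungs were set against untreated naive lungs. Upk3b averaged 85.4 ± 7.07 RPM in untreated tumor-bearing lungs and 125 ± 10.2 RPM in untreated naive lungs (SD, n = 4 each), Lrrn4 32.5 ± 0.735 and 46.3 ± 4.71 RPM, Upk1b 41.6 ± 8.04 and 54.6 ± 1.52 RPM, and Msln 73.0 ± 6.69 and 88.6 ± 4.52 RPM. The means in tumor-bearing lungs were thus 0.685, 0.703, 0.761 and 0.823 times those in naive lungs, in the same gene order. Wt1 averaged 3.64 ± 0.498 RPM in untreated tumor-bearing lungs and 3.85 ± 0.964 RPM in untreated naive lungs.

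On the log2(RPM + 0.5) scale used for all tests, limma gave a change of -0.54 for Upk3b (SE 0.082, adjusted p = 7.57e-05), -0.50 for Lrrn4 (SE 0.099, adjusted p = 0.000924), -0.41 for Upk1b (SE 0.10, adjusted p = 0.00478) and -0.28 for Msln (SE 0.083, adjusted p = 0.0130). P-values were adjusted by Benjamini-Hochberg over all 15422 genes tested. Lower calls were common in this comparison, at 26% of all genes tested, and the median change was -0.41 over the 5 genes and -0.09 over all genes. Upk3b, Lrrn4 and Msln did not overlap between the groups, as 23.4% of all genes did in the lower direction. Wt1 had a change of -0.05 (95% interval -0.40 to 0.31, adjusted p = 0.841), which leaves room for a fall as large as that of Msln.

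In bulk lung RNA, fewer mesothelial cells and less of these RNAs per cell cannot be told apart. Markers of several other cell types were lower in the same lungs, with 7 of 10 fibroblast, 6 of 9 cardiac muscle, 5 of 6 alveolar type 2, 5 of 5 airway secretory and 5 of 5 ciliated markers called lower, and with 3 of 6 alveolar type 1, 3 of 6 endothelial, 2 of 5 smooth muscle, 1 of 3 skeletal muscle and 1 of 8 adipocyte markers. Median changes were -0.65 over cardiac muscle, -0.61 over alveolar type 1, -0.46 over fibroblast, -0.45 over airway secretory, -0.45 over ciliated and -0.44 over alveolar type 2 markers. They were -0.40 over smooth muscle, -0.37 over adipocyte, -0.27 over skeletal muscle and -0.16 over endothelial markers. A fall of the size seen over the 5 genes is thus not particular to them. Called higher were 6 of 6 neutrophil, 2 of 6 macrophage and 1 of 6 erythroid markers and 1 of the 10 fibroblast markers, and none of 3 thymocyte markers was called. Of 12 tested genes linked to epithelial and mesothelial transition to mesenchyme, 4 were called higher and 4 lower. The part of these shifts in the mesothelial result was not tested. Under median-of-ratios scaling Msln had a change of -0.19 and was not called (adjusted p = 0.103), and that scaling turned the split of calls over all genes to 3091 higher and 2547 lower, against 2271 higher and 4006 lower.

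IL12-GEMys alone went with lower Upk3b and Lrrn4 in naive lungs. Upk3b averaged 98.1 ± 10.1 RPM in treated naive lungs and 125 ± 10.2 RPM in untreated naive lungs, a log2 change of -0.35 (SE 0.082, limma adjusted p = 0.0132). Lrrn4 averaged 35.8 ± 3.20 RPM in treated naive lungs and 46.3 ± 4.71 RPM in untreated naive lungs, a log2 change of -0.36 (SE 0.099, limma adjusted p = 0.0325). In this comparison 1.58% of all genes tested were called lower. That share depends on the fit, at 7.87% with array weights, 4.14% with only the compared groups in the fit and 0.616% without treated naive replicate 4. The median change was -0.23 over the 5 genes and -0.04 over all genes. Of the other cell type markers listed above, 1 of 5 ciliated markers was called lower, 1 of 6 macrophage markers and 1 of the 12 transition genes were called higher, and no other was called. Median changes were -0.31 over ciliated, -0.28 over airway secretory, -0.26 over alveolar type 1, -0.19 over endothelial and -0.18 over cardiac muscle markers. They were -0.17 over smooth muscle, -0.12 over adipocyte, -0.11 over fibroblast, -0.09 over skeletal muscle and -0.06 over alveolar type 2 markers. A negative median is thus not particular to the mesothelial genes, and what these shifts share with theirs was not tested.

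Msln, Upk1b and Wt1 had negative values in the same comparison that missed the threshold. Msln averaged 76.0 ± 7.19 RPM in treated and 88.6 ± 4.52 RPM in untreated naive lungs (log2 change -0.22, 95% interval -0.40 to -0.05, limma adjusted p = 0.132). Upk1b averaged 46.9 ± 1.65 RPM in treated and 54.6 ± 1.52 RPM in untreated naive lungs (log2 change -0.22, limma adjusted p = 0.246), and was called with only the compared groups in the fit (adjusted p = 0.0318) and with array weights (0.0445). The Upk1b libraries, like those of Lrrn4, did not overlap between the groups, as 8.69% of all genes did in the lower direction. Wt1 averaged 3.15 ± 0.405 RPM in treated and 3.85 ± 0.964 RPM in untreated naive lungs (log2 change -0.23, 95% interval -0.58 to 0.13, limma adjusted p = 0.490).

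Both calls depended on single libraries. The Upk3b call was lost without treated naive replicate 4 (log2 change -0.31, limma adjusted p = 0.0603) or untreated naive replicate 2 (-0.32, 0.0569). The Lrrn4 call was lost without any 1 of treated naive replicates 1, 3 and 4 (adjusted p = 0.116, 0.0593 and 0.0761) or untreated naive replicates 2, 3 and 4 (0.113, 0.0949 and 0.0619).

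In tumor-bearing lungs the same treatment gave positive values for all 5 genes, none of which passed the threshold. Msln averaged 87.9 ± 7.70 RPM in treated and 73.0 ± 6.69 RPM in untreated tumor-bearing lungs (log2 change 0.27, 95% interval 0.09 to 0.44, limma adjusted p = 0.0758). Lrrn4 averaged 39.2 ± 6.11 RPM in treated and 32.5 ± 0.735 RPM in untreated tumor-bearing lungs (log2 change 0.25, 95% interval 0.05 to 0.46, adjusted p = 0.167). Upk3b averaged 96.5 ± 3.36 RPM in treated and 85.4 ± 7.07 RPM in untreated tumor-bearing lungs (log2 change 0.18, 95% interval 0.0062 to 0.35, adjusted p = 0.256). Upk1b and Wt1 had log2 changes of 0.09 and 0.10, with 95% intervals of -0.12 to 0.31 and -0.26 to 0.45.

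With limma 0 of the 5 genes were called, and 3 had an unadjusted p under 0.05. With limma-voom on recovered reads the counts were also 0 and 3. Over all genes tested, 5.23% were called in either direction. Without untreated tumor-bearing replicate 1, the library with high Upk1b, Msln was called (log2 change 0.33, adjusted p = 0.0231).

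Whether IL12-GEMys went with a different change in tumor-bearing than in naive lungs was tested directly, as the change with treatment in tumor-bearing lungs minus the change with treatment in naive lungs. This difference was positive and called for Lrrn4 (0.62 on the log2 scale, SE 0.14, limma adjusted p = 0.0147), Upk3b (0.52, SE 0.12, adjusted p = 0.0123) and Msln (0.49, SE 0.12, adjusted p = 0.0199). It was 0.31 for Upk1b (95% interval 0.0050 to 0.61, adjusted p = 0.258) and 0.33 for Wt1 (95% interval -0.18 to 0.83, adjusted p = 0.499). Positive calls were rare over the whole table, at 1.03% of genes, against 3.94% negative. The median was 0.49 over the 5 genes and 0.01 over all genes.

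Markers of other tissue cell types had positive values of this difference too, so the sign is not particular to the mesothelial genes. The median was 0.66 over adipocyte markers (8 of 8 positive), 0.44 over alveolar type 1 (6 of 6), 0.33 over cardiac muscle (9 of 9), 0.32 over ciliated (5 of 5), 0.31 over alveolar type 2 (6 of 6) and 0.30 over airway secretory markers (5 of 5). Adipocyte markers varied within a group, with sums of 114, 126, 128 and 358 RPM in treated tumor-bearing replicates 1 to 4. For the remaining tissue lists the medians were lower. The median was 0.20 over endothelial (4 of 6), 0.18 over fibroblast (8 of 10), 0.18 over skeletal muscle (3 of 3) and 0.16 over smooth muscle markers (4 of 5). Of all these markers 1, of ciliated cells, was called. Among blood cell lists the median was 0.80 over erythroid (6 of 6 positive, none called), -0.73 over neutrophil (0 of 6, 1 called lower), -0.10 over macrophage (2 of 6, 2 called lower) and -0.27 over thymocyte markers (1 of 3, none called). The part of these shifts in the mesothelial values was not tested.

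The 3 called differences share the same 16 lungs and the same 4 group means as the comparisons above, so they restate those values rather than add to them. Without treated naive replicate 4 the value for Msln was 0.45 (limma adjusted p = 0.0531). Without untreated tumor-bearing replicate 1 Upk1b was called as well (0.43, adjusted p = 0.0137), but the share of all genes called positive was then 3.15%. That share was 4.01% with array weights and 0.506% without treated naive replicate 4 or untreated naive replicate 1.

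**Figure D2:**
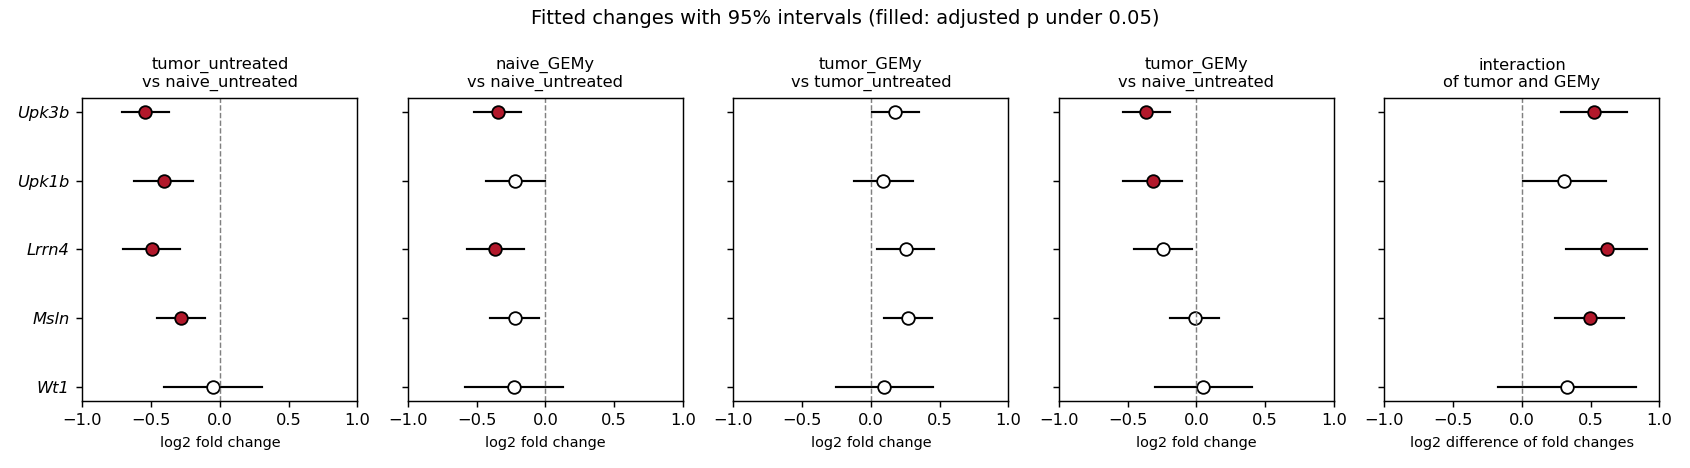
Fitted log2 changes of the mesothelial genes with 95% intervals in 4 comparisons, and the difference of the treatment changes in the rightmost panel, filled where the adjusted p is under 0.05. Upk3b and Lrrn4 are filled and left of 0 with the tumor alone and with IL12-GEMys alone, no gene is filled for IL12-GEMys in tumor-bearing lungs, and Upk3b, Lrrn4 and Msln are filled and right of 0 in the rightmost panel.

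Treated tumor-bearing lungs, which had both exposures, had lower uroplakin levels than untreated naive lungs. Upk3b averaged 96.5 ± 3.36 RPM in treated tumor-bearing lungs and 125 ± 10.2 RPM in untreated naive lungs (log2 change -0.37, limma adjusted p = 0.00244). Upk1b averaged 43.9 ± 4.88 RPM in treated tumor-bearing lungs and 54.6 ± 1.52 RPM in untreated naive lungs (log2 change -0.32, limma adjusted p = 0.0226). Lower calls made up 24.4% of all genes tested. In the same lungs 6 of 6 neutrophil and 4 of 6 macrophage markers were called higher, and 5 of 9 cardiac muscle, 4 of 5 ciliated, 3 of 5 airway secretory, 3 of 6 alveolar type 2, 3 of 6 endothelial and 4 of 10 fibroblast markers lower, and their part in the result was not tested. Neither uroplakin gene overlapped between the groups, as 25.6% of all genes did in the lower direction.

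Lrrn4, with a log2 change of -0.24, missed the threshold (limma adjusted p = 0.0622). Without treated tumor-bearing replicate 4, Lrrn4 was called lower (limma adjusted p = 0.00844). Summed adipocyte markers reached 358 RPM in that library, against 114, 126 and 128 RPM in replicates 1, 2 and 3 of its group. Whether this bears on Lrrn4 was not tested. Lrrn4 was also called lower without untreated naive replicate 1 (0.0283), with the replicate number as a block (0.0281) and with array weights (0.00472). Of all genes tested, 21.7%, 19.2%, 27.0% and 36.1% were called lower in these fits, in the same order. The Upk1b call was lost without treated tumor-bearing replicate 2 or 4 or untreated naive replicate 1 (adjusted p = 0.0751, 0.0581 and 0.0541), and under median-of-ratios scaling (-0.22, adjusted p = 0.113). Msln had a change of -0.01 (95% interval -0.19 to 0.16) and Wt1 of 0.05 (95% interval -0.30 to 0.41).

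Among treated lungs, the tumor made no called difference to any of the 5 genes. The log2 change in treated tumor-bearing against treated naive lungs was 0.28 for Wt1 (95% interval -0.08 to 0.63), 0.21 for Msln (0.03 to 0.39), 0.12 for Lrrn4 (-0.09 to 0.33), -0.02 for Upk3b (-0.19 to 0.15) and -0.10 for Upk1b (-0.31 to 0.12). Limma called 0 of 5, with 1 unadjusted p under 0.05, and limma-voom gave the same counts. Over all genes tested, 10.4% were called, but with the hemoglobin covariate 181 genes were called in place of 1607.

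Other genes known from mesothelium were taken from a list of 14. Of these, Muc16 was not analysed here, Calb2, the calretinin gene used to mark human mesothelium, stayed under 3 reads in every lung, and Mslnl missed the minimum, which left 11 tested. In untreated tumor-bearing against untreated naive lungs 8 of the 11 fell and 1 rose, where 26% of all genes tested were called lower and 14.7% higher. Their median log2 change was -0.47. Of the 11, the injected cell product held Cldn15 at 10.7 RPM, Dmkn at 5.37 RPM and each of the others at 2.99 RPM (Pdpn) or less. Over the 16 lungs Cldn15 averaged 18.9 RPM and Dmkn 13.1 RPM.

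Bnc1, which encodes a zinc finger protein, averaged 4.32 ± 0.306 RPM in untreated tumor-bearing lungs and 8.17 ± 0.677 RPM in untreated naive lungs (log2 change -0.85, limma adjusted p = 4.7e-05). Nkain4, whose product binds the sodium pump, averaged 20.2 ± 1.21 RPM in untreated tumor-bearing lungs and 32.0 ± 1.33 RPM in untreated naive lungs (log2 change -0.65, adjusted p = 1.4e-05). Krt19, a keratin gene that airway epithelium also uses, had a log2 change of -0.66 (adjusted p = 0.00148). Aldh1a2, which encodes an enzyme of retinoic acid synthesis, had a change of -0.47 (adjusted p = 0.000822), and the claudin gene Cldn15 one of -0.43 (adjusted p = 0.000209). Dmkn, which encodes a secreted protein, the membrane glycoprotein gene Gpm6a, and Rspo1, which encodes an agonist of Wnt signalling, fell by 0.45, 0.37 and 0.39 on the log2 scale. Of these 8, Rspo1 alone lost its call under an alternative, with the hemoglobin share of reads as a covariate (adjusted p = 0.0520). That share was 0.306% to 2.41% in treated and 0.553% to 5.41% in untreated tumor-bearing lungs, against 0.09996% to 0.335% in treated and 0.190% to 1.51% in untreated naive lungs.

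Has1, a hyaluronan synthase gene, was the exception that rose. It averaged 3.86 ± 0.936 RPM in untreated tumor-bearing lungs and 2.16 ± 0.309 RPM in untreated naive lungs (log2 change 0.70, limma adjusted p = 0.0169). That call was lost without untreated tumor-bearing replicate 4 (adjusted p = 0.0529) or untreated naive replicate 1 (0.0501), and with the hemoglobin covariate (0.0720). Prg4, which encodes lubricin, averaged 6.53 ± 5.18 RPM in untreated tumor-bearing lungs and 12.7 ± 4.28 RPM in untreated naive lungs and just missed the threshold (adjusted p = 0.0507). It passed without replicate 3 of the untreated tumor-bearing group (adjusted p = 0.00526), of the treated naive group (0.0407) or of the untreated naive group (0.0449), and without treated naive replicate 1 (0.0464). With all lungs, Prg4 passed at a minimum of 1 RPM (0.0478), on FPKM (0.0409) and without the trend and robust settings (0.0449). Array weights (0.0227) and limma-voom (0.0316) called it too. Pdpn, which alveolar type 1 cells also express, had a log2 change of -0.60 (adjusted p = 0.0962). It was called without untreated tumor-bearing replicate 1 (adjusted p = 0.0428) and with the replicate number as a block (0.0289). Lower calls over all genes were 30.2% with array weights and 27.4% with the block, against 26% otherwise.

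In treated naive against untreated naive lungs 3 of the 11 fell and none rose, where 1.58% of all genes tested were called lower and 5.12% higher. Bnc1 averaged 5.31 ± 0.916 RPM in treated naive lungs and 8.17 ± 0.677 RPM in untreated naive lungs (log2 change -0.59, limma adjusted p = 0.00518). Gpm6a had a change of -0.34 (adjusted p = 0.0427) and Cldn15 one of -0.28 (adjusted p = 0.0244). Bnc1 was the only 1 called when treated naive replicate 1 or 4 or untreated naive replicate 2 was left out, while 5 genes were called without untreated tumor-bearing replicate 1 or 3, 6 with only the compared groups in the fit and 7 with array weights. The Cldn15 call was also lost without treated naive replicate 3 (0.0521) or untreated naive replicate 4 (0.0625) and under median-of-ratios scaling (0.0506), and the Gpm6a call without replicate 2 of either tumor-bearing group, treated naive replicate 1, 2 or 4, or untreated naive replicate 1, 2 or 3 (0.0542 to 0.158). With all lungs, the Gpm6a call was lost with no minimum (limma adjusted p = 0.0507) and without the trend and robust settings (0.0589). In treated against untreated tumor-bearing lungs none of the 11 was called, where 5.23% of all genes were. The difference of the treatment changes was positive and called for Bnc1 (0.81, adjusted p = 0.00958), Aldh1a2 (0.54, adjusted p = 0.0193) and Cldn15 (0.45, adjusted p = 0.0141), where 1.03% of all genes had a positive call. The Aldh1a2 call was lost without untreated tumor-bearing replicate 3 (adjusted p = 0.0502), and 5 genes were called without untreated tumor-bearing replicate 1.

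In treated tumor-bearing against treated naive lungs Nkain4 was the only 1 of the 11 called, where 10.4% of all genes were called and 6.58% were called lower. It averaged 20.4 ± 1.46 RPM in treated tumor-bearing lungs and 26.6 ± 2.98 RPM in treated naive lungs (log2 change -0.37, limma adjusted p = 0.00963). In treated tumor-bearing against untreated naive lungs 5 of the 11 fell and 1 rose, where 24.4% of all genes tested were called lower and 12.5% higher.

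The bladder uroplakins are barely expressed in lung, at means of 2.45 RPM for Upk1a, 1.31 RPM for Upk2 and 0.547 RPM for Upk3a over the 16 lungs. All 3 fell in untreated tumor-bearing against untreated naive lungs, where 26% of all genes were called lower, with log2 changes of -0.56 for Upk1a (limma adjusted p = 0.0131), -0.65 for Upk2 (adjusted p = 0.00546) and -0.47 for Upk3a (adjusted p = 0.0293). The Upk3a call was lost under median-of-ratios scaling (adjusted p = 0.05001), quantile normalization (0.0572) and the hemoglobin covariate (0.0632), and without untreated tumor-bearing replicate 3 or 4 or untreated naive replicate 2 or 4 (adjusted p = 0.0675, 0.0897, 0.0627 and 0.0723). None of the 3 was called for IL12-GEMys in either kind of lung.

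**Figure D3:**
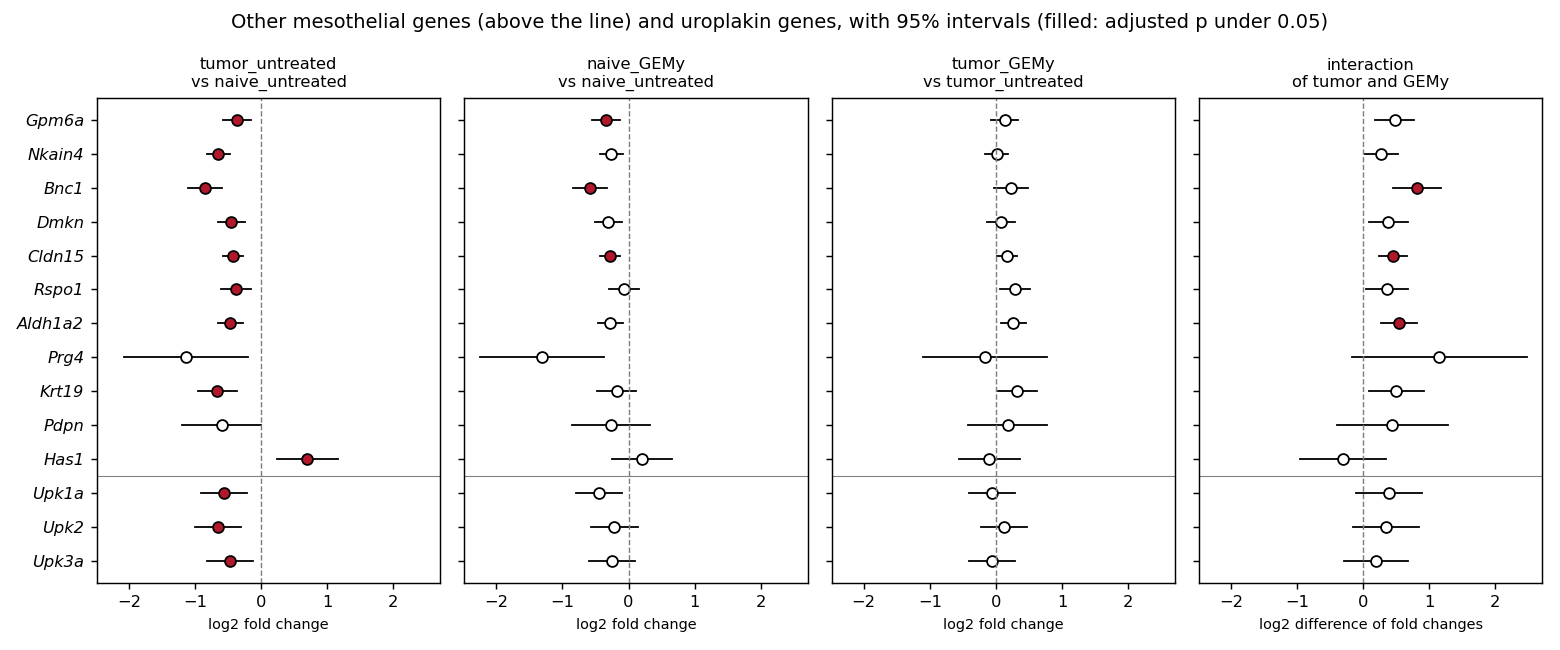
Log2 changes with 95% intervals for the other mesothelial genes, above the line, and the bladder uroplakin genes, below it, filled where the adjusted p is under 0.05. In the leftmost panel 8 of the 11 mesothelial genes are filled left of 0 and Has1 is filled right of 0, while no gene is filled in the panel for IL12-GEMys in tumor-bearing lungs.

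Within groups, no pair of the 5 genes passed the threshold for correlation, which with 16 lungs does not show that they vary apart. The log2 values were centred on the group means and correlated over the 16 lungs, with 100000 permutations within groups and adjustment over the 10 pairs. The closest pair was Upk3b and Msln, with a Pearson r of 0.62 (permutation p = 0.0237, adjusted p = 0.237) and a Spearman rho of 0.57 (permutation p = 0.0402, adjusted p = 0.201). The r was 0.35 without treated naive replicate 2 and untreated naive replicate 1, so it rests in part on those libraries. Under median-of-ratios scaling that pair had an r of 0.69 (permutation adjusted p = 0.0469).

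Lrrn4 and Wt1 had an r of 0.54 (permutation p = 0.0907, adjusted p = 0.302), and both were highest in treated tumor-bearing replicate 4. Upk1b and Lrrn4 leaned opposite ways, with an r of -0.33 (permutation p = 0.134, adjusted p = 0.334) and a rho of -0.59 (permutation p = 0.0179, adjusted p = 0.179). No pair of the 10 had an adjusted p under 0.05. In untreated tumor-bearing replicate 1, Upk1b stood 0.38 above its group mean on the log2 scale, Upk3b 0.16 and Msln 0.18, while Lrrn4 stood at -0.02 and Wt1 at -0.15.

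**Figure D4:**
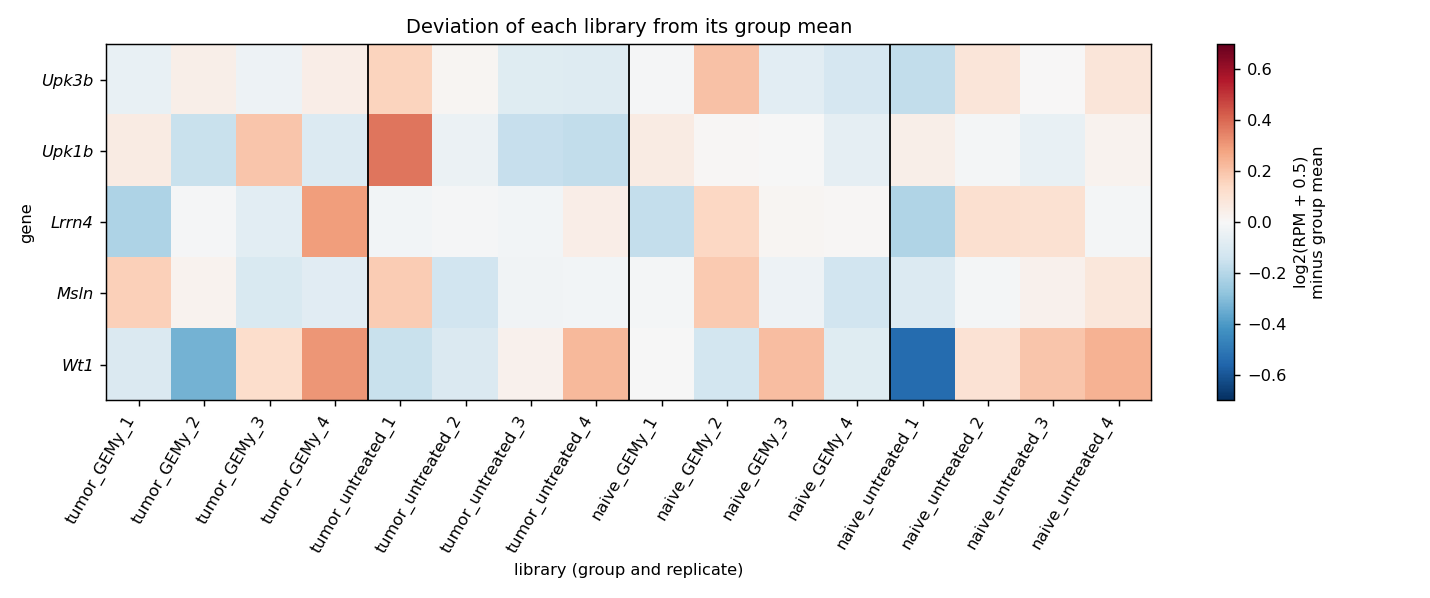
Deviation of each lung library from its group mean, as log2(RPM + 0.5), for the 5 mesothelial genes (rows) over the 16 libraries (columns, with lines between groups). Wt1 in untreated naive replicate 1 is the lowest cell at -0.54 and Upk1b in untreated tumor-bearing replicate 1 the highest at 0.38, and treated naive replicate 2 lies above its group mean for Upk3b, Lrrn4 and Msln by 0.20, 0.15 and 0.18.

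The genes whose within-group pattern was most like the mean of the 5 were ranked by Pearson r over the 16 lungs among 13812 genes with a mean of at least 1 RPM, which share the same libraries and depth. The 10 at the top were Bpifb5 (0.784), Stac2 (0.779), Fbxo38 (0.778), Thsd7a (0.771), Actr8 (0.766), Hoxb7 (0.755), Dnaaf4 (0.749), C2 (0.745), Chst4 (0.745) and Crb2 (0.742). None of these is on the list of other mesothelial genes. The median r over all ranked genes was 0.03, with -0.45 at the 5th and 0.44 at the 95th percentile. The top of so long a ranking over 16 lungs holds high r by selection alone, and no r in it was tested. Of the other mesothelial genes Aldh1a2 ranked highest, at 37 with an r of 0.664, followed by Bnc1 at 179 (0.570), Cldn15 at 180 (0.569) and Gpm6a at 360 (0.511). Prg4 stood near the other end, at rank 12789 (-0.39).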

How the data were processed

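RNA from flash frozen lungs was isolated with TRIzol, per the labels' protocols. Reads were handled with STAR 2.7.3a, Partek and mm10, per the submitters' processing notes, and the annotation, strand setting and filters are not given in the sources used here. The authors deposited FPKM per gene for all 17 libraries, scaled to the listed genomic span, introns included. Each deposited FPKM value was multiplied by the span in kilobases, which gives RPM summing to 1000000 in every column. This was done because genes with long introns, such as Wt1, fall under a fixed FPKM minimum. Depth was recovered from the smallest steps. Of the values under 1000 reads, 86.6% to 88.4% came out whole within 0.02, and the others were fractional. No 2 libraries were identical.

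Genes with at least 0.5 RPM in at least 4 lungs were tested with limma 3.58.1 in R 4.3.3 (trend and robust) on log2(RPM + 0.5), with all 16 lungs sharing 1 estimate of the spread, 2-sided. The fit was also run on simulated data, made of independent normal values with planted changes. Those data held no shift in cell mixture or scaling, so they do not address such shifts in the lungs. Correlations, promoters and figures used Python 3.11.15 with scipy 1.17.1. Exon lengths came from GENCODE M21 and promoters from RefSeq. The members and lists were chosen with earlier results of these data known. All members, all tested genes of the mesothelial and uroplakin lists and the 10 genes most like the members are named. Other cell type lists are given as counts and medians, with sums for some. Alternatives covered the pseudocount, the minimum, scaling, weights, limma-voom on recovered reads, FPKM, a hemoglobin covariate, a replicate block and each library left out.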

Additional observations from a re-analysis of the deposited data

Results flagged for a closer look

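A library far from the other 3 of its group was looked for in 76 combinations of gene and group over the mesothelial and uroplakin genes. A gap over 0.829 of the group's range flagged 4 of them, where chance alone flags about 1 in 20. Bnc1 had 6.44 RPM and Prg4 6.91 RPM in treated tumor-bearing replicate 4, each apart from the other 3 libraries. Pdpn had 83.2 RPM in treated naive replicate 4, and Upk1a had 1.72 RPM in treated naive replicate 3. None of the 5 member genes was flagged in this way.

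The change with IL12-GEMys differed between tumor-bearing and naive lungs by a limma test of the difference itself, given on the log2 scale as tumor-bearing minus naive. The difference was 0.62 for Lrrn4, 0.52 for Upk3b, 0.49 for Msln, 0.81 for Bnc1, 0.54 for Aldh1a2 and 0.45 for Cldn15, each with an adjusted p under 0.05 over all genes tested. Its cause was not tested.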

How the results depend on the processing

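Each comparison was refitted under 28 or 29 settings. In untreated tumor-bearing against untreated naive lungs 4 of the 5 genes were called in every fit with 1 library left out, and 3 under median-of-ratios scaling. With 1 library left out, the number called ranged from 0 to 2 in treated against untreated naive lungs (3 with array weights or with only the compared groups, which add Upk1b), from 0 to 1 in treated against untreated tumor-bearing lungs and from 1 to 2 in treated tumor-bearing against untreated naive lungs. Array weights gave 1 called gene for treatment in tumor-bearing lungs (Msln, log2 change 0.36). They called 2348 genes in either direction there, against 806 otherwise, and 4.67% of all genes higher, against 2.42%. Median-of-ratios scaling gave 1 called gene in treated tumor-bearing against untreated naive lungs, and 1 pair of genes with a called correlation.

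Signs turned only for changes that were not called. For Wt1 in untreated tumor-bearing against untreated naive lungs the change was 0.031 under median-of-ratios scaling, 0.071 with the hemoglobin covariate and -0.23 to 0.034 with 1 library left out. For Upk3b in treated tumor-bearing against treated naive lungs it was 0.052, 0.019 and -0.058 to 0.049 under the same 3 settings. For Msln in treated tumor-bearing against untreated naive lungs it was 0.088 under median-of-ratios scaling, 0.020 with array weights and -0.068 to 0.022 with 1 library left out. For Wt1 there it was -0.094 with array weights and -0.13 to 0.16 with 1 library left out. For Wt1 in treated against untreated tumor-bearing lungs it was -0.0048 to 0.21 with 1 library left out. The r of Lrrn4 and Msln became 0.053 under median-of-ratios scaling and 0.39 without the 2 farthest libraries, that of Upk3b and Wt1 -0.31 and that of Msln and Wt1 0.17 without their 2 farthest. The causes were not tested.

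Same-numbered libraries deviated together with r from -0.25 to 0.49, which was over 0.1 in 12 of 24 pairs. Of the 16 libraries, 6 correlated best with their own number. These values do not decide whether the numbers pair the libraries. With the replicate number as a block, the number of the 5 genes called changed in 1 comparison, to 3 in treated tumor-bearing against untreated naive lungs, where the block added Lrrn4 (adjusted p = 0.0281) to the 2 genes called without it. In that comparison 27.0% of all genes were called lower with the block, against 24.4% without it. Calls over all genes moved to 6703 with the block in untreated tumor-bearing against untreated naive lungs, where they were 6277 without it, and to 1216 in treated against untreated naive lungs, where they were 1032. Wt1 has no value on the FPKM scale, where it lies under the minimum, and its depth limits it most, at 2.43 to 4.96 RPM.

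Over all genes, median-of-ratios scaling moved the split of higher and lower calls to 2602 and 2019 in treated tumor-bearing against untreated naive lungs (1926 and 3762 otherwise), and to 824 and 492 in treated tumor-bearing against treated naive lungs (593 and 1014 otherwise; 671 and 722 with quantile normalization; 144 and 37 with the hemoglobin covariate). Median-of-ratios scaling and quantile normalization moved the median of all genes by at most 0.096 on the log2 scale.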
